A study of Mus musculus with 2 samples.

Results

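MicroRNA genes of the miR-29 family (Mir29a, Mir29b-1, Mir29b-2 and Mir29c) and of the miR-204 family (Mir204 and Mir211) were described in whole kidney of newborn mice. These 6 genes were chosen by name as kidney matrix and epithelial maturation genes, and all 6 were found among the 1973 microRNA genes of the tables. The samples were 2 pups of strain B6NCrl on postnatal day 0, each the 2 kidneys of 1 pup, and the labels place both pups in the same pregnancy and state that sex was not collected. Small RNA, with an upper size limit of 30 in the labels without a unit, was sequenced from total RNA of this tissue, for which the labels name no treatment or modification. All samples form 1 group at 1 age, so no comparison between groups exists, and a change of these genes with age cannot be seen here. Both litter mates share a mother, so the spread between them may be narrower than that between litters.

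MicroRNAs are short RNAs, cut from a hairpin, that pair with messenger RNAs mainly through their seed, bases 2 to 8, and lower the output of the paired messages. The miR-29 family is known for targets among extracellular matrix genes such as collagens and elastin, and its loss under TGF-beta is a known feature of fibrosis, in kidney as elsewhere. The miR-204 family is known from epithelia, with miR-204 best known from the retinal pigment epithelium and the kidney tubule and miR-211 from melanocytes.

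The mature sequences are shown first, because they set which gene a read could be counted for. They are RefSeq sequences on GRCm38.p6, where all 6 genes were matched by symbol, written 5′ to 3′ with the seed in capitals. The arms of the hairpins for which the families are named read as follows.
miR-29a-3p: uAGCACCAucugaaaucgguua
miR-29c-3p: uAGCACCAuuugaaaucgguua
miR-29b-3p: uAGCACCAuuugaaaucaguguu
miR-204-5p: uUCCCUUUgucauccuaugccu
miR-211-5p: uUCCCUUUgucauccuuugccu

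The 4 miR-29 genes carried the seed AGCACCA, and no other gene in the RefSeq table did. The seed UCCCUUU of miR-204 and miR-211 was shared with Mir7670 only, which had 1 count in each pup. Counted from 1 at the 5′ end, miR-29a-3p and miR-29c-3p differed at 1 of 22 bases, C10U from miR-29a to miR-29c. From miR-29b-3p to miR-29c-3p the differences were A18G, G21U and U22A, after 17 identical bases at the 5′ end. From miR-204-5p to miR-211-5p the single difference was A17U, after 16 identical bases. A read of these arms must cover such a position to tell the genes of a family apart. Neither read lengths nor the mismatches allowed in the alignment were stated, which leaves reads with an error at such a base unaccounted for.

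Mir29b-1 and Mir29b-2 both encode miR-29b-3p, base for base, and their hairpins shared a run of 25 bases around it. A full read of miR-29b-3p therefore matches both loci. The tables list multimapping reads in a row of their own, so miR-29b could be counted for a gene only from reads that reach past this run or come from the other arm of the hairpin. Those other arms differ between the loci, with a longest shared run of 9 bases, and read as follows.
miR-29b-1-5p: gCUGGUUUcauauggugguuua
miR-29b-2-5p: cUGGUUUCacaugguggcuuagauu

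On mm10, Mir29a (ENSMUSG00000065610.1) spans bases 31062660 to 31062747 of chromosome 6, minus strand. Mir29b-1 (ENSMUSG00000065604.1) spans 31063023 to 31063093 there, with 275 bases between the hairpins. No gene on that strand contains either, microRNA and other small RNA genes aside. Mir29b-2 (ENSMUSG00000065412.2) spans bases 195037040 to 195037120 of chromosome 1, plus strand. Mir29c (ENSMUSG00000065548.1) follows on that strand from 195037547 to 195037634, with 426 bases between them. Both of these lie where A330023F24Rik, a non-coding gene, has an exon in some transcript, and Cd46 runs over them on the opposite strand. Mir204 (ENSMUSG00000065507.2) is intronic to the ion channel gene Trpm3 at bases 22750605 to 22750672 of chromosome 19, plus strand. Mir211 (ENSMUSG00000065585.1) is intronic to the related channel gene Trpm1 at bases 64205806 to 64205911 of chromosome 7, plus strand. For Mir29b-1, Mir29b-2 and Mir204 the identifier carries a later version in the annotation used for these coordinates, so the hairpin limits used for counting may have differed. Reads on the strand opposite to the 6 genes numbered 0 in both pups.

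The tables held 5832192 counts in pup 1 and 3846704 in pup 2 on the strand of a microRNA gene, and levels are these counts scaled to CPM by the library total. A microRNA read spans its short molecule, so counts were not divided by length. The yield of reads per molecule was not measured, so levels of different genes are those of reads. Multimapping reads took 30.3% of all reads in pup 1 and 31.0% in pup 2. Listed kidney epithelium microRNAs held 27.8% ± 0.716 (SD, n = 2) of counts, with none of 12 at 0. The highest were Mir10a (154437 CPM), Mir10b (68835) and Mir196b (22510), ahead of Mir429 (17174). The 27.8% thus depends on listing Mir10a, Mir10b and Mir196b, whose restriction to epithelium was not tested. Markers of other cells held smaller shares than this list, though not all below the 0.0592% of the 6 genes together. The endothelial gene Mir126a held 7.96%, and the 6 stromal and smooth muscle genes 4.24%. The 4 leukocyte genes found, of 5 listed, held 0.0704%, led by Mir223 at 298 CPM. Mir142 was not found by symbol, so this share leaves it out. The 4 endocrine and pancreas genes held 0.0130%, led by Mir375 at 129 CPM, with Mir216a at 0. The liver gene Mir122 held 0.00506%. The 6 neuronal genes found, of 7 listed (without Mir9-1), held 0.00187%, led by Mir137 at 16.9 CPM, with Mir124a-1, Mir124a-2 and Mir124a-3 at 0. The 5 striated muscle genes found, of 6 listed (without Mir1a-2), held 0.000478%, and of these Mir133b, Mir133a-2, Mir133a-1 and Mir1a-1 were at 0. Reads of a mature sequence held by more than 1 locus are listed as multimapping, which may apply to the numbered Mir124a, Mir133a and Mir1a genes. A count of 0 therefore does not show that these microRNAs were absent.

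Of the miR-29 reads counted for a gene, nearly all were given to Mir29c and Mir29a, with Mir29c the higher of them in both pups. Mir29c had 711 counts in pup 1 and 450 in pup 2, which is 121.9 CPM (95% Poisson interval 113 to 131) and 117.0 CPM (106 to 128). Its mean of 119 ± 3.48 CPM (SD, n = 2) placed it at rank 160, with 91.9% of the 1973 genes lower. Mir29a had 503 counts in pup 1 and 372 in pup 2, or 86.2 CPM (78.9 to 94.1) and 96.7 CPM (87.1 to 107). Its mean was 91.5 ± 7.40 CPM (SD, n = 2), at rank 167. The highest Mir29a value lay below the lowest Mir29c value, so the values of these genes did not overlap across the pups. In tissue read as a whole, fewer cells that hold a microRNA and less of it per cell cannot be told apart.

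The ratio of Mir29c to Mir29a was 1.41 in pup 1 (95% Clopper-Pearson interval 1.26 to 1.59) and 1.21 in pup 2 (1.05 to 1.39). Both intervals lie above 1, and they overlap each other, so a difference in this ratio between the pups was not resolved. The intervals cover counting error only, since no molecular identifiers mark which reads stem from 1 molecule. With 2 pups, an exact two-sided sign test cannot go below p = 0.5. As a share of miR-29 counts, Mir29c took 58.2% (95% Wilson interval 55.4 to 61.0) in the first pup and 54.3% (50.9 to 57.7) in the second. Mir29b-1 and Mir29b-2 had 5 and 8 counts over both pups, and the others were of Mir29a.

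Their cluster partners were close to the limit of counting. Mir29b-1, beside Mir29a, had 1 count in pup 1 and 4 in pup 2, or 0.171 CPM (95% Poisson interval 0.00434 to 0.955) and 1.04 CPM (0.283 to 2.66). Mir29b-2, beside Mir29c, had 6 counts in pup 1 and 2 in pup 2, or 1.03 CPM (0.378 to 2.24) and 0.520 CPM (0.0630 to 1.88). Their means were 0.606 ± 0.614 and 0.774 ± 0.360 CPM (SD, n = 2), and their intervals overlap within each pup, so no order between them was resolved. For scale, 3 counts, a fixed setting taken here as the limit of counting, are 0.514 CPM in pup 1 and 0.780 in pup 2.

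Within the chromosome 6 cluster, Mir29a had 503 times the counts of Mir29b-1 in pup 1 (95% Clopper-Pearson interval 89.9 to 19906) and 93.0 times in pup 2 (36.0 to 343). Within the chromosome 1 cluster, Mir29c had 118.5 times the counts of Mir29b-2 in pup 1 (54.2 to 324) and 225 times in pup 2 (61.9 to 1864). These ratios compare reads that match 1 place and leave out every read of miR-29b-3p that was listed as multimapping. Multimapping reads numbered 3038663 in pup 1 and 2075718 in pup 2, while the 4 miR-29 genes together had 1221 and 828 counts. The tables thus bound miR-29b-3p, and the full miR-29 level, only loosely, since how many of the multimapping reads belong to it is not listed.

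**Figure D1:**
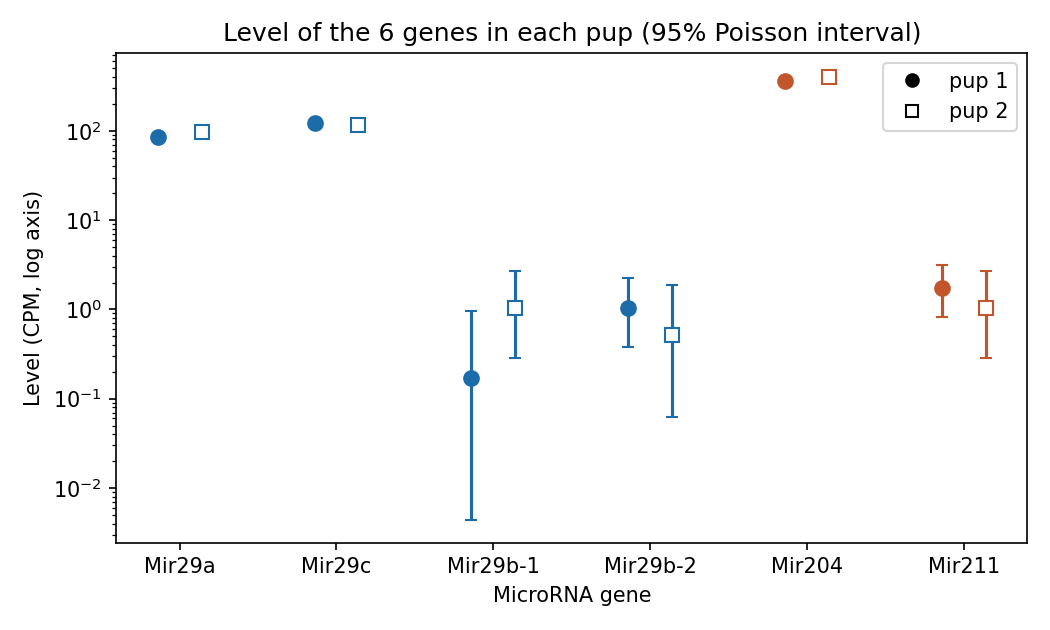
Level of each of the 6 genes in CPM (log axis) in pup 1 (filled circles) and pup 2 (open squares), with 95% Poisson intervals of the counts as bars, drawn also where they are smaller than the symbol. Mir204, Mir29c and Mir29a lie between 86.2 and 399 CPM, and Mir211, Mir29b-1 and Mir29b-2 lie below 2 CPM.

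The Mir29b genes were set beside the other microRNA genes with a copied mature sequence. Of the 1973 genes, 916 had a mature sequence in the RefSeq table, and for 83 of these at least 1 mature sequence was found whole in a hairpin at another place. Under 1 CPM on average were 38 of the 83, or 45.8% (95% Wilson interval 35.5 to 56.5), against 539 of 833 genes without a copy, or 64.7% (61.4 to 67.9). Genes with and without a copy may differ in much else, and many without one had no count, so these shares say nothing of what a copy does to a count.

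The arms of the hairpin were then taken apart, a split chosen after the values were seen. Of 33 genes with a copy of every listed arm, 24 (72.7%) had 0 counts in both pups, against 279 of the 833 genes with no copied arm (33.5%), whose median was 0.260 CPM. Of the 50 genes with a copy of 1 arm but not of the other, as in Mir29b-1 and Mir29b-2, 6 (12%) had 0 counts and 13 were under 1 CPM, and their median was 15.9 CPM. Both Mir29b genes were among these 13. Others of the 50 were far higher, such as Mirlet7f-2 with 4015 ± 60.6 CPM and Mir16-1 with 2731 ± 141 CPM (SD, n = 2), both chosen after their values were seen. At 100 CPM or more were 3 of the 33 genes, 13 of the 50 and 133 of the 833. These groups too may differ in much else, so the effect of a copied arm on a count was not tested.

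**Figure D2:**
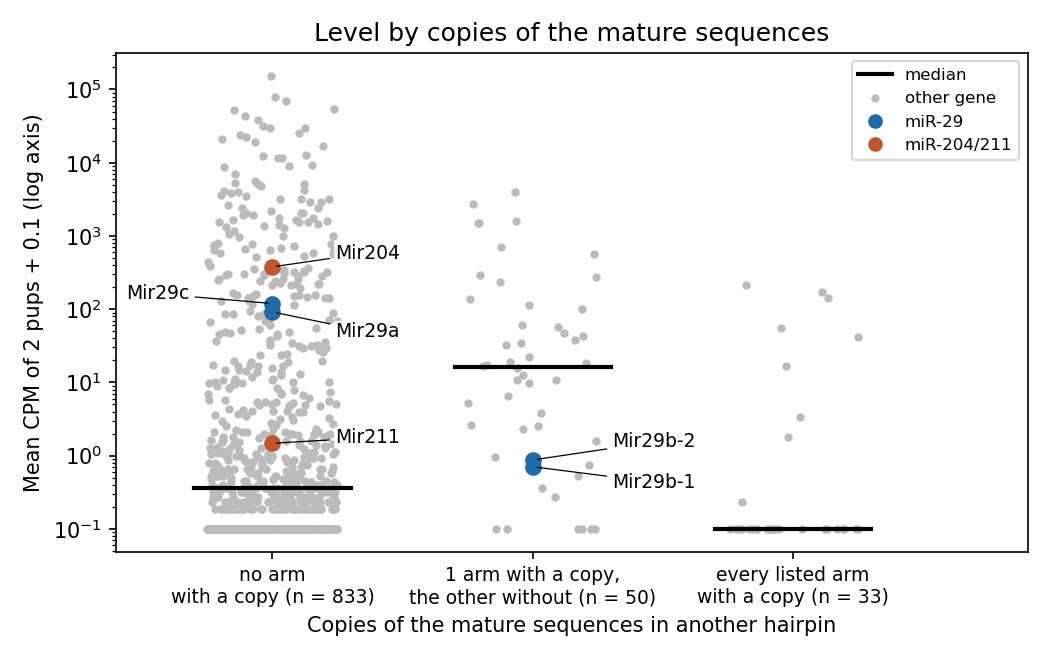
Mean CPM of both pups plus 0.1 (log axis) for the 916 genes with a mature sequence in the RefSeq table, split by whether no arm, 1 arm or every listed arm has a copy in another hairpin; bars are medians. Mir29b-1 and Mir29b-2 lie below the median of 15.9 CPM of their column, while Mir204, Mir29c and Mir29a stand in the column without a copy.

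Mir204 was the most read of the 6 genes. It had 2089 counts in pup 1 and 1534 in pup 2, or 358 CPM (95% Poisson interval 343 to 374) and 399 CPM (379 to 419). Its mean was 378 ± 28.7 CPM (SD, n = 2), at rank 102, with 94.8% of the 1973 genes lower. It exceeded Mir29c 2.94-fold in pup 1 (95% Clopper-Pearson interval 2.70 to 3.20) and 3.41-fold in pup 2 (3.07 to 3.80).

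Its relative Mir211 was near the limit of counting, with 10 counts in pup 1 and 4 in pup 2. These are 1.71 CPM (0.822 to 3.15) and 1.04 CPM (0.283 to 2.66), with a mean of 1.38 ± 0.477 CPM (SD, n = 2). Unlike the Mir29b pair, Mir204 and Mir211 have no identical mature copy in another hairpin of the RefSeq table. The ratio of Mir204 to Mir211 was 208.9 in pup 1 (95% Clopper-Pearson interval 113 to 436) and 383.5 in pup 2 (149 to 1409), so both intervals start above 100. Mir204 made up 99.5% of the family's counts in pup 1 and 99.7% in pup 2. A read of the first 16 bases alone would match both genes.

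The share of all counts taken by Mir204 and Mir211 was 0.0360% in pup 1, with a 95% Wilson interval of 0.0345 to 0.0376, and 0.0400% in pup 2, with an interval of 0.0380 to 0.0420. For the 4 miR-29 genes it was 0.0209% (0.0198 to 0.0221) and 0.0215% (0.0201 to 0.0230). In counted reads the summed level of Mir204 and Mir211 was 1.72 times the miR-29 sum in pup 1 and 1.86 times in pup 2, with miR-29b-3p reads largely missing from the latter sum. All 6 genes came to 0.0592% ± 0.00324 of counts (SD, n = 2).

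At 10 CPM or more in both pups, 3 of the 6 genes were detected, beside 246 of all 1973 genes. For each of these 3, the genes next above and below in mean level were taken, so close means follow from that choice. Mir148b (386 ± 19.0 CPM) stood next above Mir204 and Mir30b (377 ± 36.7) next below. Around Mir29c came Mir375 (129 ± 16.4 CPM) and Mir146 (118 ± 9.16), and around Mir29a came Mir701 (95.9 ± 5.06) and Mir672 (89.4 ± 5.78). Each of these gaps in mean level was smaller than the larger SD of the pair. Within a pup the levels could lie further apart. Mir148b was at 399 CPM in pup 1 and 373 in pup 2, against 358 and 399 for Mir204. In pup 2, Mir375 was at 141 CPM against 117 for Mir29c.

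**Figure D3:**
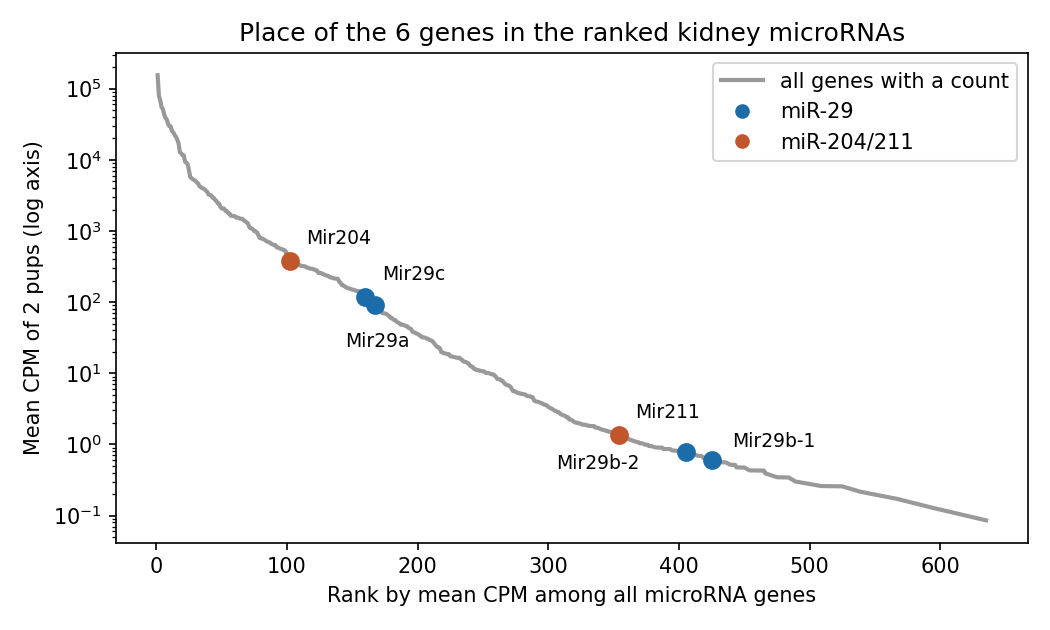
Mean CPM of both pups (log axis) against rank for all microRNA genes with a count (grey line), with the 6 genes marked. Mir204 stands at rank 102, Mir29c at 160 and Mir29a at 167, while Mir211, Mir29b-2 and Mir29b-1 stand at 354, 405 and 425.

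Of 30 other microRNA genes tied to kidney fibrosis and epithelial maturation, 12 had a higher mean level than Mir204, 20 a higher one than Mir29c and 22 than Mir29a. Together the 30 held 11.2% ± 0.663 of counts (SD, n = 2), with a median level of 319 CPM, beside 46.4 CPM over the 6 genes and 0 over all 1973. At its top stood Mir30e (31966 ± 3330 CPM) and Mir30a (21077 ± 1872) of the miR-30 family, known from podocytes and nephron development. Mir429 (17174 ± 27.8 CPM) of the epithelial miR-200 family and Mir21a (12810 ± 1139), known to rise in injured kidney, came next.

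Between the pups, the 3 well counted members differed little. Reads of Mir204 were higher in the library of pup 2 by more than counting error, and those of Mir29c and Mir29a did not pass the test. Log2 ratios are pup 2 over pup 1 after TMM scaling, and the test is an exact binomial test of both counts with Benjamini-Hochberg adjustment over the 324 genes whose mean count reached 10. It compares the reads of 2 libraries, 1 on each side, covers counting error only, and passes small ratios more readily the more counts a gene has. Mir204 had a log2 ratio of 0.13 (95% counting interval 0.04 to 0.23, adjusted p = 0.021). For Mir29a the ratio was 0.14 (-0.05 to 0.34, adjusted p = 0.314), and for Mir29c it was -0.08 (-0.25 to 0.09, adjusted p = 0.551). Mir211, Mir29b-1 and Mir29b-2 were below the count minimum and were not tested.

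Of the 324 tested genes, 109 passed, or 33.6%, of which 41 were higher in pup 2 (12.7%) and 68 lower (21%). Thus 1 of 3 tested members is close to the share over all tested genes. Among the 58 tested genes within 2-fold of the level of Mir204, 31 passed. The ratio of Mir204 was smaller than the median absolute log2 ratio of 0.15 over the tested genes. With edgeR's exact test, the adjusted p of Mir204 was 1, and 1 gene of 324 passed. Since that test takes its dispersion from the very pups it compares, few calls can be made with it, and it checks nothing independently.

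Marker lists also moved between the pups. The endothelial gene Mir126a held 7.20% of counts in pup 1 and 8.72% in pup 2, the 6 stromal and smooth muscle genes 4.03% and 4.46%, and the 12 kidney epithelium genes 28.3% and 27.3%. The 3 red blood cell genes held 0.0241% and 0.00988%. Members of a list did not all move with its sum. In the red blood cell list Mir451a passed as lower in pup 2 (log2 ratio -1.98), while Mir144 passed as higher (0.39) and Mir486 had 4 and 9 counts. In the stromal list Mir143 (0.14) and Mir145a (0.12) passed as higher and Mir199b (-0.18) as lower, with a list median of -0.09. Of the kidney epithelium genes, 6 passed as lower, and Mir192 (0.18) and Mir200b (0.03) as higher. No gene of these lists was at 0 in both pups. Their part in the Mir204 difference was not tested.

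Of the fibrosis and maturation list, 29 of 30 genes were tested, 3 were higher in pup 2 and 9 lower. The median log2 ratio of the 29 was -0.08, beside -0.04 over all 324 genes and 0.13 over the 3 tested members. Higher were Mir192 (0.18), known from the proximal tubule, Mir30b (0.18) and Mir200b (0.03). Mir30e (-0.23), Mir30a (-0.20), Mir21a (-0.20) and Mir429 (-0.02) were among the lower ones.

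**Figure D4:**
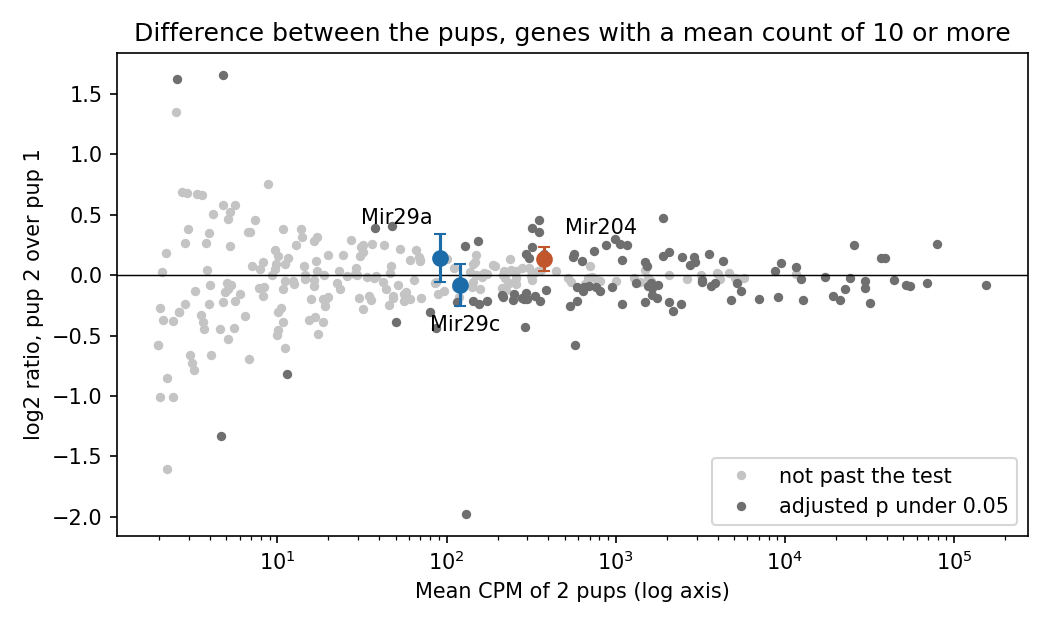
Log2 ratio of pup 2 over pup 1 against mean CPM (log axis) for the 324 tested genes, dark where the adjusted p was under 0.05, with 95% counting intervals for Mir29a, Mir29c and Mir204. The interval of Mir204 lies above 0 and those of Mir29a and Mir29c span 0, all within the cloud of genes at like levels.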

How the data were processed

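Per the deposited notes, the authors aligned reads to mm10 and counted them over genes of annotation release M4. The deposited tables hold raw read counts per hairpin gene, so mature arms are not separated. The third column, the strand of the gene as read from the values, was used, and rows that name no gene were left out. The aligner, trimming and filters were, for these tables, not given in the sources used here. Identifiers were matched without version to GENCODE M21 (1894 of 1973). Analyses used Python 3.11.15, scipy 1.17.1, edgeR 4.0.16 and DESeq2 1.42.0. CPM used library totals, the comparison of pups TMM sizes and a prior count of 0.5 for ratios. Simulated counts with known changes and counting error only were used to check the test. Spread between pups was not simulated, so this does not check the calls made on these pups. Copies were sought among RefSeq hairpins only, not in the genome.

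The 6 members and all lists were chosen with earlier results of these data known. Named genes are the members, the genes next above and below each member with a mean count of at least 10, and the 4 highest genes of the 30-gene list. Others were chosen after their values were seen.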

Additional observations from a re-analysis of the deposited data

How the results depend on the processing

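TMM or DESeq2 scaling left the level of each of the 6 genes within 1 SD of its mean. Under both, the sizes of the 2 libraries shift in opposite directions. A mean over 2 pups can then hardly move, so this outcome is no check of the levels. The share of Mir204 and Mir211 was 0.0449% with Mir10a left out of the total and 0.0220% over all reads, and the miR-29 share was 0.0251% and 0.0123%, and 0.0208% with counts on either strand. With 1 pup left out, these shares ran from 0.0360% to 0.0400% and from 0.0209% to 0.0215%, the Mir29c to Mir29a ratio from 1.21 to 1.41 and the Mir204 to Mir211 ratio from 208.9 to 383.5. The members detected numbered 4 at 1 CPM and 2 at 100 CPM. The pups differed in 95 to 110 genes under other scalings, filter and column, but in 1 gene by edgeR's exact test, with 14 at an unadjusted p under 0.05. That test takes its dispersion from the pups themselves, and with it Mir204 no longer passed (adjusted p = 1), where the other alternatives gave 0.00665 to 0.0451. At 10 CPM in place of 1, the shares of low genes with and without a copy were 57.8% and 76.2%. Split by arm after seeing the data, 75.8% of genes with every listed arm copied and 26.0% of those with 1 arm copied were under 1 CPM. No paired analysis was possible because both pups form 1 group. Counts of at most 10 in a pup leave wide intervals for Mir211, Mir29b-1 and Mir29b-2.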
